A study of Homo sapiens with 5 samples.

Results

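Ribosome biogenesis genes encode the factors that transcribe ribosomal RNA, process it and assemble it with ribosomal proteins. In this study they were measured in 5 clones of Nalm6, an established human B-cell precursor leukaemia line, with 1 array per clone. Members were taken from a list of 58 symbols. A member counted as measured where the platform annotation gave a probe set that symbol and no other, and where several did so the one with the highest 5-array mean was kept. This found 53 of the 58 among 18417 genes. NOP56 and DDX47 shared their probe sets with another gene, and GNL3, DDX18 and EBNA1BP2 were not analysed here. The 3 MondoA shRNA clones carried a short hairpin RNA against MondoA, encoded by MLXIP, a glucose-responsive transcription factor that pairs with MLX. The 2 control shRNA clones carried a nonsense hairpin. Both groups grew in the same RPMI medium with serum, glutamine, gentamycin and added glucose. The promoter that drives the hairpins is not given in the sources used here. By the title of the series, the aim was to learn how MondoA acts on metabolism, differentiation and survival in acute lymphoblastic leukaemia.

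RNA polymerase I transcribes the ribosomal DNA in the nucleolus into a long precursor. The small-subunit processome, built around the U3 small nucleolar ribonucleoprotein (snoRNP), folds and cleaves the part that becomes 18S RNA. Other factors mature the large subunit, and snoRNPs guide methylation (box C/D) and pseudouridylation (box H/ACA) of the RNA. Many of these genes are known as targets of MYC, which binds the E-box sequence that MondoA and MLX also recognise, and growing leukaemia cells depend on ribosome production.

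All values are RMA values on the log2 scale, and differences are MondoA shRNA minus control shRNA with SD over n = 3 MondoA shRNA and n = 2 control shRNA arrays. The labels give separate clones, so p-values set the difference between groups against the variation between clones. With 1 array per clone, that variation cannot be told apart from variation between arrays. MLXIP itself read 6.42, 6.47 and 6.29 in MondoA shRNA arrays 1, 2 and 3, against 6.42 in both control arrays. The difference was -0.03 with a 95% interval from -0.21 to 0.16 (limma adjusted p = 0.959). MondoA shRNA array 1 and both control arrays held exactly equal values, which bears on the width of that interval. A lower level of the targeted RNA was thus not detectable, and the arrays are named by their labels throughout. The 12 measured B precursor markers had 5-array means from 4.85 (RAG1) to 10.4 (MME), with PAX5 at 9.03 and VPREB1 at 9.43. Means ran from 2.31 to 6.46 for 9 T and natural killer cell markers and from 2.21 to 5.51 for 9 myeloid markers. These ranges check the cell label only, since probe sets differ in how strongly they bind, and no order of levels between genes is drawn from them. Of the B precursor markers, 4 (33.3%) separated toward higher values in MondoA shRNA arrays. These were CD22 at 1.27, CD79A at 0.91, CD79B at 0.25 and TCF3 at 0.25. Another 3 (25%) separated toward lower values, DNTT at -1.19, RAG1 at -0.45 and CD24 at -0.33. Of all genes, 4.85% separated toward higher and 5.18% toward lower values. The part of these markers in the results was not tested. Exactly equal values in at least 3 arrays were found for 54.0% of all genes and for 11 of the 53 members.

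Most members read slightly higher in the arrays labelled MondoA shRNA, but no single gene passed the test. The difference was above 0 for 44 of the 53 members and below 0 for 9, where 49.1% of all genes lay above 0. The median difference of the members was 0.10, against 0.00 over all genes and 0.01 over the 6833 genes at or above the level of the lowest member. Without MondoA shRNA array 3 the median was 0.02 and 30 of the 53 members lay above 0, as did 46.2% of all genes. The median was 0.15 without MondoA shRNA array 1 and 0.05 without control array 2.

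By limma with Benjamini-Hochberg adjustment over all genes, 0 members passed an adjusted p under 0.05, as did 0% of all genes. The lowest adjusted p of any member was 0.833. Before adjustment, 2 members had a limma p under 0.05 with a higher value, WDR43 and NOP16, as did 1.55% of all genes. With a lower value it was 0 members and 2.18% of all genes. In both directions together, 2 members (3.77%) and 3.73% of all genes had such a p. It was 5 members (9.43%) and 3.84% of all genes without MondoA shRNA array 1, and 3 members (5.66%) and 3.18% of all genes without MondoA shRNA array 3. It was 0 members and 5.53% of all genes without MondoA shRNA array 2. Without control array 1 it was 1 member (1.89%) and 10.8% of all genes, and without control array 2 it was 0 members and 9.36% of all genes. With array weights, 10 members (18.9%) and 6.86% of all genes had such a p. The 95% intervals reached a median of 0.38 to either side of the members' differences, which is more than any difference but that of NOP10. Each MondoA shRNA array lay above both control arrays for 10 members (18.9%), against 4.85% of all genes and 7.92% of the genes at or above the lowest member level. The opposite separation was seen for 0 members, against 5.18% of all genes. The 10 were RRN3, POLR1C, WDR43, NOB1, RRP9, PNO1, NOP16, MRTO4, NIP7 and GAR1. That count was 23 members (43.4%) without MondoA shRNA array 1, against 9.84% of all genes, and 27 (50.9%) without control array 1, against 17.0% of all genes. It was 11 (20.8%) without MondoA shRNA array 2, against 8.63%, and 10 (18.9%) without MondoA shRNA array 3, against 6.48%. Without control array 2 it was also 10 (18.9%), near the 16.6% of all genes. Among genes with no equal values between arrays it was 9 of 31 members (29.0%), against 14.4% of 4301 genes. After a further quantile normalization it was 9 (17.0%), against 9.28% of all genes. The opposite separation was seen for 2 members without MondoA shRNA array 3 and for 2 without control array 2. The share of all genes with that separation was not computed for these settings, so the counts have no yardstick.

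**Figure D1:**
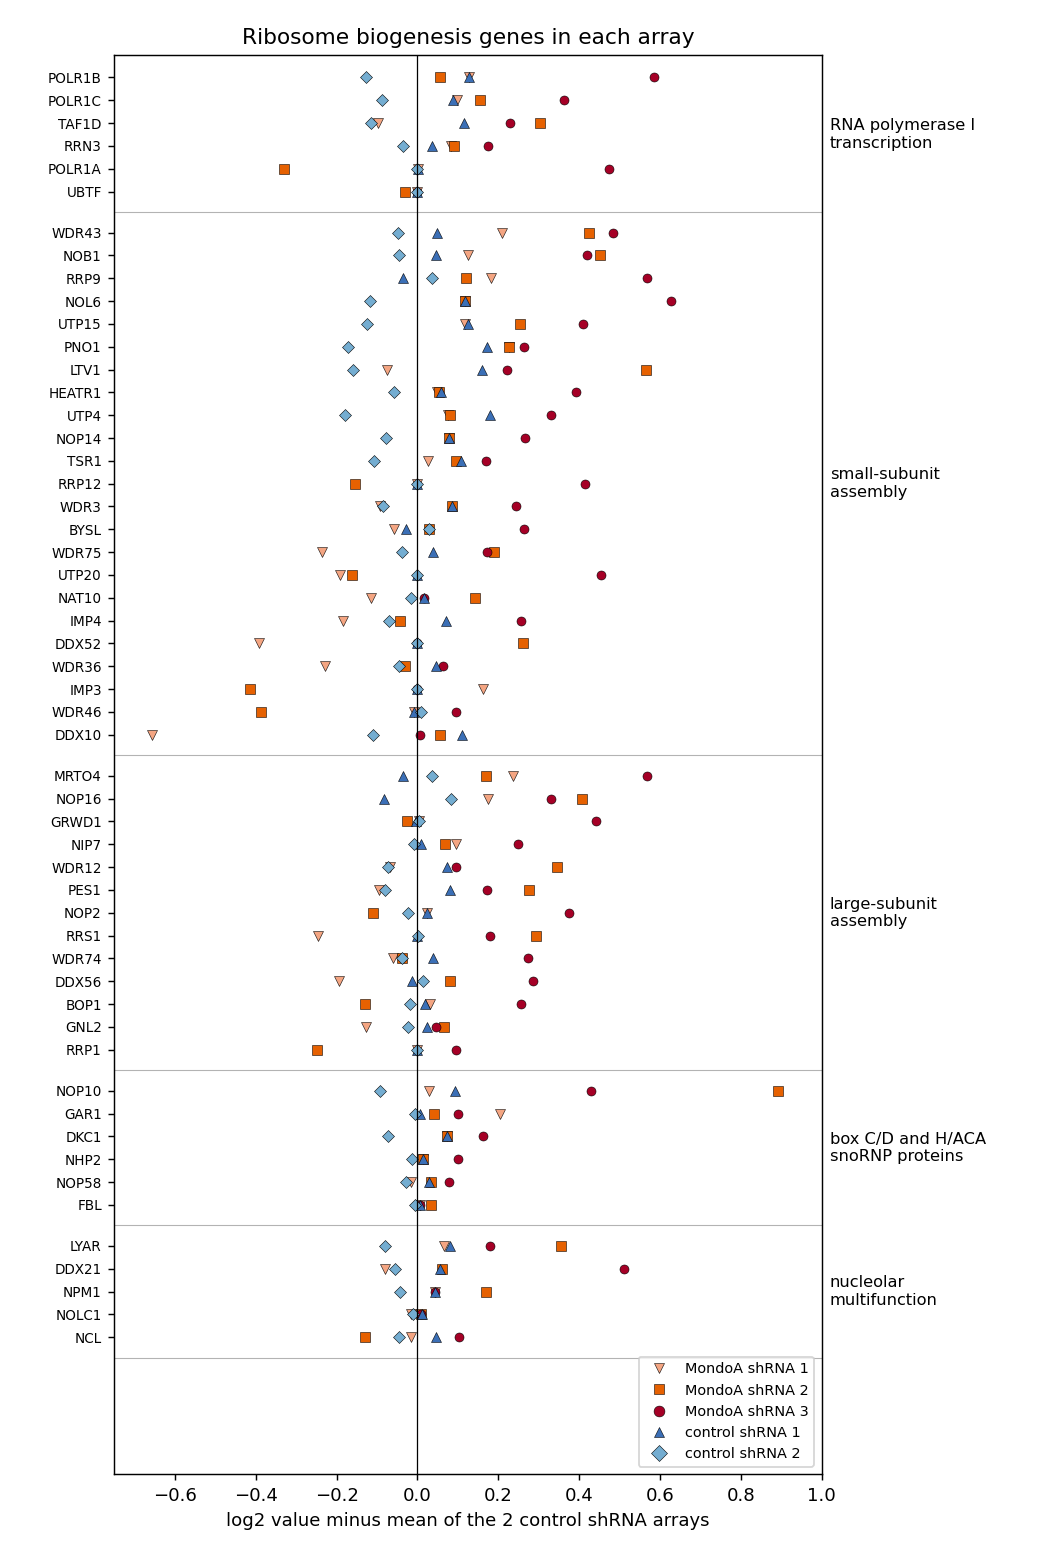
Each row is 1 of the 53 measured genes, grouped by role, and the horizontal axis is the log2 value of each array minus the mean of both control arrays. Marker shape and colour give the array. MondoA shRNA array 3 lies above both controls for 45 genes, while MondoA shRNA array 1 does so for 12.

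The promoters of the members, whatever their direction, were searched for the E-box CACGTG, whose letters are the same on both strands. RefSeq promoter windows (GRCh38.p14, 250 bases before to 50 after the start) were matched for 47 of the 53 members. The motif was present in 18 of the 47 (38.3%), against 7.43% of all 27305 promoters and 11.5% of the 5733 matched promoters of genes at or above the lowest member level. By role it was present in 12 of 21 small-subunit, 4 of 11 large-subunit and 2 of 5 snoRNP promoters, and in 0 of 6 RNA polymerase I and 0 of 4 nucleolar multifunction promoters. The 18 members with the motif had a median difference of 0.13 and the 29 without it 0.10. The groups did not overlap for 6 of the 29 members without the motif. They did not overlap for 4 of the 18 with it: WDR43, MRTO4, RRP9 and PNO1. Their promoters are shown because they are the separated members with the motif, beside that of NOP16, a separated member that lacks it in this window. Each stretch runs 5′ to 3′ on the strand of the gene, from 120 bases before the start through 30 bases from it, and capitals mark the E-box.
WDR43, chr2:28894547-28894696, plus strand: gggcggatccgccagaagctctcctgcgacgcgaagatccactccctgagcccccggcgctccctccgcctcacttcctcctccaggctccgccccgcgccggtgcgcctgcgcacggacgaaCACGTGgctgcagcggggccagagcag
MRTO4, chr1:19251685-19251834, plus strand: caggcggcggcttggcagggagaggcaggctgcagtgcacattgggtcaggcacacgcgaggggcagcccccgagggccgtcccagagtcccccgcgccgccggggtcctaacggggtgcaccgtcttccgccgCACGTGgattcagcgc
RRP9, chr3:51941875-51942024, minus strand: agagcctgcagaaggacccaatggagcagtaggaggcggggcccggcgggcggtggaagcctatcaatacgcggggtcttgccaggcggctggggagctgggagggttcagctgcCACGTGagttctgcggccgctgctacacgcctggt
PNO1, chr2:68157768-68157917, plus strand: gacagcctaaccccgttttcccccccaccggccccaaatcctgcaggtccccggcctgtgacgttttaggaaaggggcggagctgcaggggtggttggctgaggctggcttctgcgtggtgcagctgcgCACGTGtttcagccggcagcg
NOP16, chr5:176388569-176388718, minus strand: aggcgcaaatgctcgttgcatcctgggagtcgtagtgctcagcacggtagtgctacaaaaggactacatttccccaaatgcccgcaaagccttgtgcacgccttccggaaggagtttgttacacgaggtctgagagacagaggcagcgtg

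In the 4 promoters with an E-box it sits near the start of transcription. Its first base lies 3 bases after the start in WDR43, 14 after it in MRTO4, 9 after it in PNO1 and 5 before it in RRP9. A match of letters does not show that a factor binds there.

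Among the 6 genes of RNA polymerase I transcription, 5 read higher and 1 lower, with a median difference of 0.13. POLR1B, one of the large catalytic subunits, read 6.99, 6.92 and 7.45 in MondoA shRNA arrays 1, 2 and 3, against 6.99 and 6.74 in control arrays 1 and 2. Only array 3 stood above both controls, and the difference was 0.26 with a 95% interval from -0.37 to 0.88 (limma adjusted p = 0.833). Its partner POLR1A read 7.19, 6.86 and 7.67 in MondoA shRNA arrays, against 7.19 in both control arrays. Array 2 was the lowest and array 3 the highest of all 5, and the difference of 0.05 stood beside an SD of 0.40 among the MondoA shRNA clones. Without array 3 it was -0.16.

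POLR1C, a subunit shared with RNA polymerase III, read 7.43, 7.49 and 7.70 in MondoA shRNA arrays and 7.42 and 7.25 in control arrays. The groups did not overlap, though MondoA shRNA array 1 nearly met control array 1, and the difference was 0.21. RRN3, which links the polymerase to the promoter-bound factors, read 8.22, 8.23 and 8.31 in MondoA shRNA arrays and 8.17 and 8.10 in control arrays. The groups did not overlap, with an SD of 0.05 in each, a difference of 0.12 and an interval from -0.01 to 0.24. The annotation lists RRN3 pseudogenes on 3 further probe sets, so signal from near-identical copies cannot be told apart from its own.

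TAF1D, a subunit of the promoter selectivity factor SL1, read 6.998, 7.40 and 7.32 in MondoA shRNA arrays and 7.21 and 6.98 in control arrays. Array 1 lay between the controls, and the difference was 0.14. UBTF, which binds along active ribosomal DNA, read 8.40, 8.37 and 8.40 in MondoA shRNA arrays and 8.40 in both control arrays. Its difference was -0.01 with an interval from -0.05 to 0.03, among the narrowest of the members. Exactly equal values stood in 4 arrays, so the narrow interval need not reflect a precise measurement.

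The 23 measured small-subunit factors held 18 higher and 5 lower values, with a median difference of 0.09. WDR43, a WD-repeat protein of the processome that acts early with the polymerase, read 8.63, 8.84 and 8.90 in MondoA shRNA arrays and 8.46 and 8.37 in control arrays. The means were 8.79 ± 0.15 in MondoA shRNA and 8.42 ± 0.07 in control arrays, a difference of 0.37 or 1.29-fold. Its interval ran from 0.07 to 0.68, with an unadjusted p of 0.0288 and an adjusted p of 0.833 by limma. Over all alternatives it stayed between 0.32 and 0.46.

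NOB1, the endonuclease that trims the 3′ end of 18S RNA, read 7.98, 8.30 and 8.27 in MondoA shRNA arrays and 7.90 and 7.81 in control arrays, a difference of 0.33. PNO1, the partner of NOB1 on the pre-40S particle, read 6.69, 6.69 and 6.72 in MondoA shRNA arrays and 6.63 and 6.29 in control arrays, a difference of 0.24. The groups separated for both genes, but all MondoA shRNA arrays of PNO1 lay close to control array 1 and far from control array 2. Without control array 1, PNO1 was the 1 member past the limma threshold (adjusted p = 0.0367), with a lone control assumed to vary like the other group. In that fit 1.89% of the members and 4.08% of all genes passed. RRP9, a protein of the U3 snoRNP, read 7.02, 6.95 and 7.40 in MondoA shRNA arrays and 6.80 and 6.87 in control arrays. All 3 stood above both controls, with array 3 well above the rest and a difference of 0.29.

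NOL6, a processome protein, read 6.22, 6.22 and 6.73 in MondoA shRNA arrays and 6.22 and 5.98 in control arrays. MondoA shRNA arrays 1 and 2 equalled control array 1, and array 3 alone stood apart. UTP20, a large scaffold protein, read 5.07, 5.10 and 5.71 in MondoA shRNA arrays and 5.26 in both control arrays. Arrays 1 and 2 lay below both controls and array 3 above them, which left a difference of 0.03. RRP12, an export and maturation factor, read 6.02, 5.87 and 6.44 in MondoA shRNA arrays and 6.02 in both control arrays, with array 3 again the highest.

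The helicase gene DDX10 gave the lowest difference of all members, -0.20. It read 5.85, 6.56 and 6.51 in MondoA shRNA arrays and 6.61 and 6.39 in control arrays, so that array 1 alone lay below the controls. Without that array the difference was 0.03. The other members of this role with values below 0 were WDR46 at -0.10, IMP3 at -0.08, WDR36 at -0.07 and the helicase gene DDX52 at -0.04. Further up, UTP15 differed by 0.26, LTV1 by 0.24, HEATR1 and UTP4 by 0.16 each, NOP14 by 0.14 and TSR1 by 0.10. Smaller positive differences were found for RRP12 (0.09), WDR3 and BYSL (0.08 each), WDR75 (0.04), NAT10 (0.01), which acetylates 18S RNA, and IMP4 (0.01).

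Of the 13 measured large-subunit factors, 11 read higher and 2 lower, with a median difference of 0.10. MRTO4, a nucleolar relative of the stalk protein P0, read 8.02, 7.95 and 8.35 in MondoA shRNA arrays and 7.75 and 7.82 in control arrays. The groups did not overlap and the difference was 0.33, with an interval from -0.11 to 0.76. NOP16, a nucleolar protein of pre-60S particles, read 6.85, 7.08 and 7.005 in MondoA shRNA arrays and 6.59 and 6.76 in control arrays. Its difference of 0.30 had an interval from 0.02 to 0.59, an unadjusted p of 0.0434 and an adjusted p of 0.833 by limma. Here array 2, not array 3, was the highest.

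GRWD1, a chaperone of ribosomal protein L3, read 8.05, 8.02 and 8.49 in MondoA shRNA arrays and 8.04 and 8.05 in control arrays. Its difference of 0.14 came from array 3 alone and was -0.01 without it. RRS1, which helps to place 5S RNA in the subunit, read 6.97, 7.51 and 7.39 in MondoA shRNA arrays and 7.21 and 7.22 in control arrays. Array 1 lay below both controls and the other MondoA shRNA arrays above them, for a difference of 0.08 beside an SD of 0.28. NIP7, a pre-60S factor, had tight values of 8.87, 8.84 and 9.03 in MondoA shRNA arrays and 8.79 and 8.77 in control arrays, a difference of 0.14 with no overlap.

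PES1, BOP1 and WDR12 form a trimer needed for pre-60S processing. They differed by 0.12, 0.05 and 0.12, none with separated groups, and they did not share a pattern across the arrays. BOP1 was highest in array 3 at 7.74 and lowest in array 2 at 7.36, whereas WDR12 was highest in array 2 at 8.87 and PES1 likewise at 8.12. A second BOP1 probe set read 7.02, 7.03 and 7.28 in MondoA shRNA arrays and 6.91 and 7.04 in control arrays. It was also highest in MondoA shRNA array 3, but lowest in control array 1. The rRNA methyltransferase gene NOP2 differed by 0.10, WDR74 and the helicase gene DDX56 by 0.06 each, the GTPase gene GNL2 by -0.00 and RRP1 by -0.05.

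All 6 measured snoRNP protein genes had differences above 0, but 3 of the 6 stayed under 0.05. NOP10, the smallest H/ACA core protein, read 7.67, 8.53 and 8.07 in MondoA shRNA arrays and 7.73 and 7.55 in control arrays. Array 1 lay between the controls while array 2 was far above them. Its difference of 0.45 was the largest of all members and its SD of 0.43 among the MondoA shRNA clones was the largest too, so the interval ran from -0.43 to 1.33. GAR1, another H/ACA protein, read 6.42, 6.26 and 6.32 in MondoA shRNA arrays and 6.22 and 6.21 in control arrays, a difference of 0.11 with no overlap. It is the 1 separated member with MondoA shRNA array 1 on top. DKC1, the pseudouridine synthase, read 8.30, 8.30 and 8.39 in MondoA shRNA arrays and 8.30 and 8.15 in control arrays, a difference of 0.10. NHP2 differed by 0.04, the box C/D protein gene NOP58 by 0.03 and the methyltransferase gene FBL by 0.02. NHP2 has a second probe set, which also differed little, at 6.94, 6.84 and 6.95 in MondoA shRNA arrays and 6.88 in both control arrays.

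Nucleolar proteins with several tasks gave 4 values above 0 and 1 below, with a median difference of 0.09 and no separated groups. NPM1, an abundant nucleolar chaperone, read 11.6, 11.7 and 11.6 in MondoA shRNA arrays and 11.6 and 11.5 in control arrays, a difference of 0.09. It has pseudogene copies and 4 probe sets on the array, so its signal cannot be assigned to the one gene with certainty. NCL, nucleolin, read 10.5, 10.4 and 10.6 in MondoA shRNA arrays and 10.6 and 10.5 in control arrays, a difference of -0.02. LYAR, a nucleolar zinc finger protein, read 7.95, 8.24 and 8.06 in MondoA shRNA arrays and 7.96 and 7.80 in control arrays, a difference of 0.20. DDX21, a helicase that works in both transcription and processing of ribosomal RNA, read 9.25, 9.39 and 9.84 in MondoA shRNA arrays and 9.38 and 9.27 in control arrays. Array 1 lay below both controls and array 3 far above, for a difference of 0.16. NOLC1, a snoRNP chaperone, differed by 0.00 with an interval from -0.04 to 0.04.

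**Figure D2:**
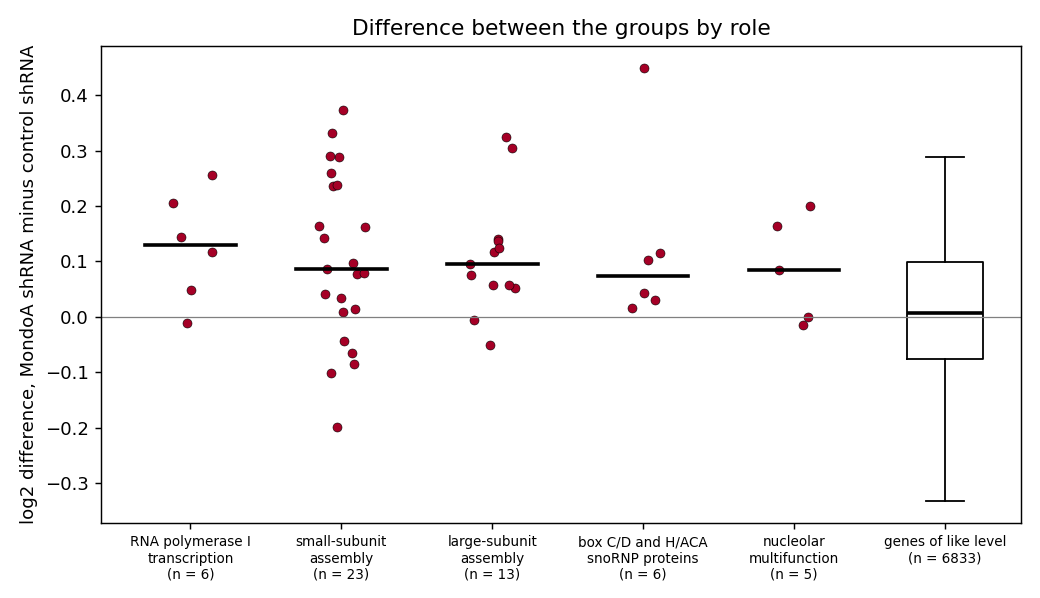
Points are log2 differences (MondoA shRNA minus control shRNA) of single genes by role, and thick lines are medians. The box shows the 25th to 75th percentile, its line the median and its whiskers the 5th to 95th percentile of the 6833 genes at or above the lowest member level. The role medians lie between 0.07 and 0.13, and the points of every role but the snoRNP genes fall on both sides of 0.

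RNA polymerase I, small-subunit and large-subunit genes thus had medians of 0.13, 0.09 and 0.10, closer to each other than the spread among genes of 1 role. With 6, 23 and 13 genes from the same 5 arrays, no difference between roles was tested. Without MondoA shRNA array 3 these medians were 0.09, 0.01 and -0.01, and those of the snoRNP and nucleolar multifunction genes were 0.05 and -0.00. Leaving out 1 array at a time gave medians from 0.06 (without control array 2) to 0.21 (without control array 1) for RNA polymerase I and from 0.01 to 0.17 (without control array 1) for small-subunit genes. For large-subunit genes they ran from -0.01 to 0.18 (without MondoA shRNA array 1), for snoRNP genes from 0.03 (without control array 2) to 0.09 and for nucleolar multifunction genes from -0.00 to 0.13 (without control array 1).

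In most of these genes the SD was larger among the 3 MondoA shRNA arrays than among the 2 control arrays. It was so too in most of the 6833 genes at or above the lowest member level, called genes of like level below. That set has only a lower bound and was not matched to the members. Exactly equal values in at least 3 arrays were found for 29.8% of it and 20.8% of the members. The SD among the 3 MondoA shRNA arrays had a median of 0.18 over the members, against 0.14 over the 6833 genes of like level. Among the 2 control arrays it was 0.05 over the members and 0.05 over the genes of like level. In 45 of 53 members (84.9%) the SD was larger among the MondoA shRNA arrays, as it was in 73.9% of the genes of like level. An SD over 2 arrays tends to come out lower than one over 3 even where the spread is equal. Whether the MondoA shRNA clones truly varied more was therefore not tested. The median SD among MondoA shRNA arrays was 0.20 for small-subunit, 0.19 for large-subunit and 0.18 for RNA polymerase I genes. It was 0.12 for nucleolar multifunction and 0.05 for snoRNP genes.

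MondoA shRNA array 3 held the single highest value for 33 of 53 members (62.3%), where it did so for 17.2% of the genes of like level. MondoA shRNA array 2 held it for 15 members (28.3%), against 41.3% of genes of like level. Array 1 was the highest for 2 members (3.77%), against 7.20% of genes of like level. It was the lowest for 16 members (30.2%), against 40.03% of genes of like level. Lowest values in array 1 were thus not particular to the members. The highest value lay in array 3 for 4 of 6 RNA polymerase I genes, 16 of 23 small-subunit genes, 8 of 13 large-subunit genes, 3 of 6 snoRNP genes and 2 of 5 nucleolar multifunction genes. Array 3 was above array 1 in 48 members and below it in 2, with a median gap of 0.28, against 0.07 over genes of like level. That gap between clones of 1 group is larger than the median difference of 0.10 between the groups.

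The controls were not alike either. Control array 1 was above control array 2 in 39 members and below it in 8, with a median gap of 0.08, against 0.03 over genes of like level. Control array 2 held the single lowest value for 24 of 53 members (45.3%), where it did so for 20.4% of genes of like level. Relative to the mean of the 5 arrays, the median member stood at -0.04, 0.01 and 0.15 in MondoA shRNA arrays 1, 2 and 3, and at -0.01 and -0.08 in control arrays 1 and 2. The same values for genes of like level were -0.06, 0.04 and 0.00 in MondoA shRNA arrays and 0.01 and -0.01 in control arrays.

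**Figure D3:**
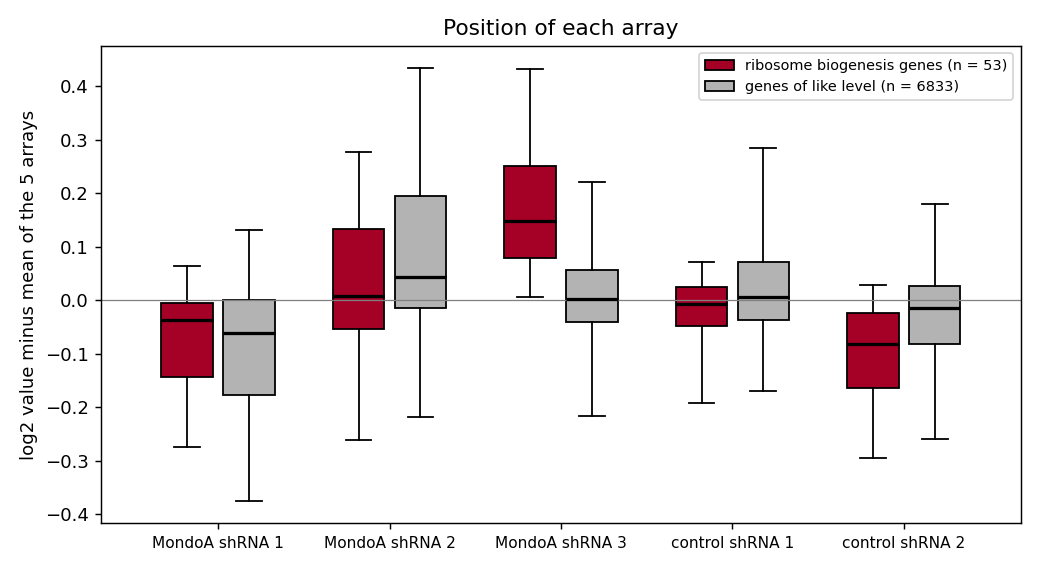
The vertical axis is the log2 value minus the mean of the 5 arrays, for each array. Dark red boxes are 53 ribosome biogenesis genes and grey boxes 6833 genes of like level. The latter are all genes at or above the lowest member level, not matched to the members. Boxes span the 25th to 75th percentile with the median as a line, and whiskers the 5th to 95th percentile. Only in MondoA shRNA array 3 does the whole box of the ribosome biogenesis genes lie above 0, with a median of 0.15 against 0.00.

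**Figure D4:**
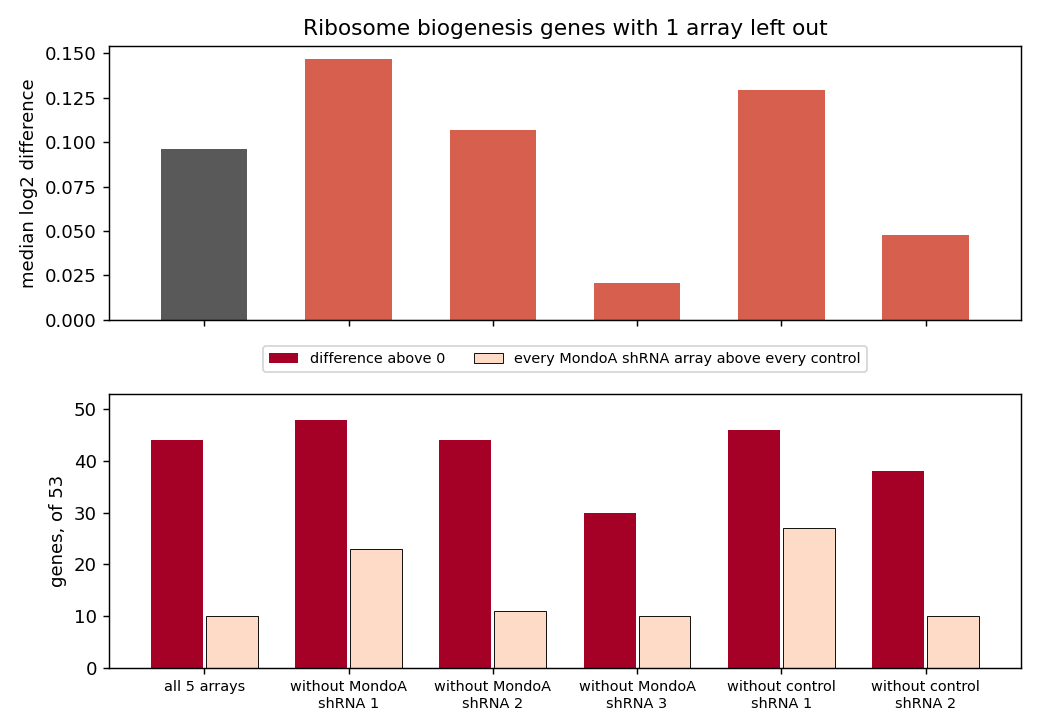
The upper panel gives the median log2 difference of the 53 genes with all 5 arrays and with each array left out. The lower panel counts the genes with a difference above 0 and those with every MondoA shRNA array above every control array. The median is 0.10 with all arrays and 0.02 without MondoA shRNA array 3, and the count above 0 is 44 and 30. Of all genes, 49.1% and 46.2% lie above 0 in these settings.

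MYC, a known driver of ribosome biogenesis, read 9.51, 10.2 and 9.92 in MondoA shRNA arrays and 9.90 and 9.81 in control arrays, a difference of 0.02 (limma adjusted p = 1). MYC was highest in MondoA shRNA array 2 and lowest in MondoA shRNA array 1. Of 11 proliferation genes, 8 lay above 0 and 3 below, with a median of 0.09, where 49.1% of all genes lay above 0. Before adjustment, limma gave a p under 0.05 for MCM6 at 0.51, MCM5 at 0.28 and MKI67 at -0.47. Higher ones made up 18.2% and lower ones 9.09% of the proliferation genes, against 1.55% and 2.18% of all genes. Of 14 regulators, CDKN1A, the cell cycle inhibitor p21, was the 1 with an unadjusted p under 0.05 in limma. It read 6.39, 6.74 and 6.36 in MondoA shRNA arrays and 7.42 and 7.37 in control arrays, a difference of -0.90 with no overlap (unadjusted p = 0.00482, adjusted p = 0.833 by limma). MDM2, which marks p53 for degradation, differed by -0.45 and MGA, a partner of MAX, by -0.22, both with no overlap. MLX, the partner of MondoA, differed by 0.22, also with no overlap. Of the 14 regulators, 7.14% separated toward higher and 21.4% toward lower values, against 4.85% and 5.18% of all genes. The part of these genes in the values of the ribosome biogenesis genes was not tested.

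The other genes of the pathway were taken from 4 further lists, chosen with earlier results of these data known. Of 102 measured genes, 74 (72.5%) lay above 0 and 26 below, where 49.1% of all genes lay above 0. The median of the 102 was 0.09, and the limma test with adjustment called 0 of them and 0% of all genes. Before adjustment, 4 higher genes (3.92%) and 1 lower gene (0.98%) had a limma p under 0.05, against 1.55% and 2.18% of all genes. The groups separated toward higher values for 14 genes (13.7%), against 4.85% of all genes. They separated toward lower values for 3 (2.94%), against 5.18%. Other RNA polymerase I genes had 13 of 15 above 0 and a median of 0.14, and other small-subunit genes 24 of 33 and 0.10. Other large-subunit genes had 28 of 40 above 0 and a median of 0.05, and the RNA exosome with its cofactors 9 of 14 and 0.08. RRP1B, at 0.34 with no overlap, was listed with the small-subunit genes, though RRP1 was put with the large-subunit members. NGDN, at 0.11, was listed with the large-subunit genes. The counts and medians of the small-subunit and large-subunit lists depend on such placements.

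EIF6, which keeps the large subunit from joining early, read 8.69, 9.01 and 8.87 in MondoA shRNA arrays and 8.29 and 8.14 in control arrays. Its difference of 0.64 was the largest of these lists, with no overlap (unadjusted p = 0.00871 by limma). NOP53, another large-subunit factor, read 9.83, 9.77 and 9.65 in MondoA shRNA arrays and 9.97 and 10.002 in control arrays, a difference of -0.23 with no overlap. The groups thus lay apart in opposite directions for these factors of 1 subunit. Of the 40 genes listed here as other large-subunit genes, 2 (5%) separated toward higher and 3 (7.5%) toward lower values. Those shares were near the 4.85% and 5.18% of all genes. TRMT112, an activator of methyltransferases, read 10.29, 10.45 and 10.51 in MondoA shRNA arrays and 10.21 and 10.06 in control arrays, a difference of 0.28. POLR2E, a subunit shared by the nuclear RNA polymerases, read 8.94, 9.06 and 9.05 in MondoA shRNA arrays and 8.86 and 8.75 in control arrays, a difference of 0.21. The exosome gene EXOSC5 read 7.49, 7.58 and 7.52 in MondoA shRNA arrays and 7.31 and 7.35 in control arrays, a difference of 0.20. All 3 genes had separated groups. In these 102 genes the single highest value lay in MondoA shRNA array 2 for 48 and in array 3 for 32. Array 3 was thus the highest for 62.3% of the members and 31.4% of these genes, a comparison that was not tested.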

How the data were processed

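Total RNA of 5 Nalm6 clones was labelled for Affymetrix whole transcript arrays, 1 array per clone. Per the submitters' processing notes, the authors used Affymetrix Expression Console 1.1 and RMA. The deposited values run from 1.42 to 13.3 and were read as log2, since the base is not stated in the labels. The genome build behind the probe sets is not given in the sources used here. Of 33297 probe sets, 19460 had 1 gene symbol in the platform annotation, 1754 several and 12083 none. Symbols were updated through RefSeq (19429 probe sets matched). Per gene the probe set with the highest mean was kept, which left 18417 genes.

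Groups were compared with limma 3.58.1 in R 4.3.3 over all 5 arrays, with 2 groups and no covariate, and p-values were adjusted by Benjamini-Hochberg over all genes. The fit was tested on simulated data. Summaries used Python 3.11.15 and pandas 2.3.3. The number of arrays limits the precision. Levels of different probe sets were not compared. Values per array are given, by role, for the 3 members with the largest absolute difference and the 2 with the largest SD among MondoA shRNA arrays. They are also given for members at an unadjusted p under 0.05, the 3 with the highest and the 3 with the lowest mean level, MYC, MLXIP and up to 3 such genes of each wider list. RRN3, UBTF, PNO1 and NIP7 were added after their values were seen. Members and lists were chosen with earlier results of these data known. Alternatives left out each array, blocked on the replicate number, changed the normalization, the filter, the probe set rule, the variance model and the array weights, or left out genes with tied values.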

Additional observations from a re-analysis of the deposited data

How the results depend on the processing

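The count of single genes past an adjusted p under 0.05 in limma was 0 with all arrays (687 at an unadjusted p under 0.05). It was 2 after a further quantile normalization, 2 with arrays centred on their medians, 60 of 4301 among genes without tied values (fewer genes tested) and 3 without moderation. Leaving out 1 array at a time gave 0 to 752, with 752 without control array 1 and 454 without control array 2, where the lone control is assumed to vary like the MondoA shRNA clones. The cause was not tested. Members with groups that do not overlap numbered 10, and 10 to 27 with 1 array left out. Members above 0 numbered 44, and 30 to 48 with 1 array left out, where 44.6% to 47.6% of all genes lay above 0. They numbered 27 of the 31 members without tied values, a count lowered by the filter itself, beside 52.2% of such genes. The median of 0.10 ranged from 0.02 to 0.15 with 1 array left out, was 0.08 after quantile normalization and 0.19 with array weights. The same replicate number in both groups pairs no clones by the labels, and deviations of same-numbered arrays correlated at -0.29 and -0.23. With the replicate number as a block, which drops MondoA shRNA array 3, the count of genes was 0, the median 0.02 and 30 members lay above 0, as without that array. No median or count of the members reversed its direction, apart from role medians of large-subunit (-0.01) and nucleolar multifunction genes (-0.00) without MondoA shRNA array 3. Arrays give no depth, and members near background could not be judged, since no detection values were used here.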

Other observations

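Probe sets whose annotation names a ribosome biogenesis gene together with another gene were outside the comparison. The probe set of NOP56, a box C/D core protein, and SNORD56 read 7.64, 7.32 and 7.97 in MondoA shRNA arrays 1, 2 and 3 and 7.64 and 7.59 in control arrays 1 and 2, a difference of 0.03. The probe set of the helicase gene DDX47 and APOLD1 read 6.95, 7.02 and 6.98 in MondoA shRNA arrays and 6.98 in both control arrays, a difference of 0.00. The probe set of NOP56 and SNORD56 was thus highest in array 3, and that of DDX47 and APOLD1 was not. Which of the named genes gave the signal of a shared probe set cannot be told apart.

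TAF1D shares several probe sets with small nucleolar RNAs. That of SNORA8 read 6.17, 6.44 and 6.93 in MondoA shRNA arrays and 6.17 and 5.94 in control arrays, a difference of 0.46. That of SNORD5 read 6.90, 6.83 and 7.62 in MondoA shRNA arrays and 6.90 and 6.70 in control arrays, a difference of 0.31. Both were highest in MondoA shRNA array 3, whereas TAF1D itself was highest in array 2. They gave the largest differences among the probe sets that TAF1D shares. The others differed by -0.07 (SNORD6), 0.01 (SNORA1), and 0.19 and -0.03 (SNORA40). None of these differences was tested.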
